A study of Mus musculus with 4 samples.

Results

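The cells described here are the later neutrophil precursors of the Sca-1-negative gate, chosen by their transcripts of Ngp (neutrophilic granule protein) and Camp (the cathelicidin antimicrobial peptide). A cell belonged to the class when at least 200 genes were detected, mitochondrial genes took under 10% of its unique molecular identifiers (UMIs, each standing for 1 captured transcript), and Ngp and Camp together made up at least 1% of its UMIs. This held for 72 of the 904 cells of the 2 sinusoidal libraries, and the whole series had 3567 cells. They were 48 of 553 cells in the library labelled knockout and 24 of 351 in the library labelled control. Mouse cells without lineage markers that bore CD31, endomucin and VE-cadherin had been sorted and split by Sca-1 into a negative gate named sinusoidal and a positive gate named type H. The labels give the genotype as Id1 -/- and Id3 -/- for the knockout and as Id1 +/+ and Id3 +/- for the control, with 5 daily doses of tamoxifen to remove Id1. For both genotypes the design text names CDH5-CreER, a Cre recombinase driven by an endothelial promoter. The control therefore also lacks 1 Id3 allele, and the sources used here do not give the number of mice in a library, their age or which part of each gene was deleted. Each genotype and gate is 1 library, so no difference below has a replicate check or a test. Ratios are the library labelled knockout over the library labelled control, and each interval is an exact 95% interval that covers counting error only.

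Neutrophils fill their granules in a fixed order while they mature in the bone marrow. Promyelocytes make the primary granule proteins, such as the proteases Elane, Prtn3 and Ctsg and the peroxidase Mpo. Myelocytes and metamyelocytes switch these off and make secondary granule proteins such as Camp, Ngp, the iron-binding lactoferrin Ltf and the siderophore-binding lipocalin Lcn2. Tertiary granule proteins, among them the gelatinase Mmp9, follow later, and the transcription factor Cebpe is needed for the secondary granule genes. Id1 and Id3, the genes named in the genotypes, encode helix-loop-helix proteins that hold E proteins off DNA.

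The class held 719367 UMIs in the library labelled knockout and 248618 in the library labelled control, with medians of 14434.5 and 9574 UMIs and of 2889 and 2013.5 genes per cell. It made up 8.68% (6.47 to 11.3) of the knockout-labelled cells and 6.84% (4.43 to 10.0) of the control-labelled cells, so the intervals overlapped. The cells set against it, with Elane at 0.5% or more of UMIs and Ngp with Camp under 1%, are called early cells here. Early cells were 247 of 553, or 44.7% (40.5 to 48.9), in the library labelled knockout and 63 of 351, or 17.9% (14.1 to 22.4), in the library labelled control. Of class and early cells together, the class was 16.3% (12.2 to 21.0) in the library labelled knockout and 27.6% (18.5 to 38.2) in the library labelled control. The design text states 20000 sorted cells, against 3641 barcodes in the 4 matrices. No class cell shared its barcode with another library, although 2 barcodes were common to the 2 knockout-labelled libraries. Id3 gave 34 UMIs (47.3 CPM, or counts per 1e6 UMIs) in the knockout-labelled class cells and 11 UMIs (44.2 CPM) in the control-labelled ones, and in early cells 44.4 and 16.9 CPM. It was thus not lower where the label says knockout, which goes against the label, and the sources used here do not say whether these tags fall in what was deleted. The genotypes below are therefore named as labels only. Xist and Y-linked transcripts both occurred in each library: 7 knockout-labelled and 6 control-labelled class cells had Xist without Y-linked UMIs, 27 and 12 had Y-linked UMIs without Xist, and 4 and 1 had both.

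The label of the class could be checked on genes that the rule did not use, although Ltf and Lcn2 follow Ngp and Camp closely. Ltf was found in 10 of 48 knockout-labelled and 20 of 24 control-labelled class cells. In lymphoid cells of the same libraries, which do not make granule proteins, Ltf was found in 1 of 17 knockout-labelled cells (median 8283 UMIs per cell) and 6 of 46 control-labelled cells (median 4419). With every cell thinned to 2000 UMIs, Ltf was found in 8 of 48 (7.48% to 30.2%) and 18 of 24 (53.3% to 90.2%) class cells and in 0 of 17 (upper bound 19.5%) and 4.35% (0.531 to 14.8) of lymphoid cells, and no cell was too shallow to be thinned. Lcn2 was found in 44 of 48 knockout-labelled and 23 of 24 control-labelled class cells at full depth, but in 22 of 48 (31.4% to 60.8%) and 20 of 24 (62.6% to 95.3%) at 2000 UMIs. In lymphoid cells Lcn2 was found in 1 of 17 and 10 of 46 at full depth, and in 0 of 17 (upper bound 19.5%) and 7 of 46 (6.34% to 28.9%) at 2000 UMIs. At equal depth, Ltf was thus found in a minority of the knockout-labelled class cells and in most of the control-labelled ones. Lcn2 was found in a smaller share of knockout-labelled than of control-labelled class cells. Its knockout-labelled interval, 31.4% to 60.8%, did not part a minority from a majority. Endothelial transcripts were nearly missing: of 15 endothelial markers, 11 had no UMI in any class cell, among them Cdh5 and Emcn, the genes of the VE-cadherin and endomucin used in the sort, and the summed level was 19.5 CPM in knockout-labelled and 24.1 CPM in control-labelled class cells. Monocyte markers summed to 325 and 221 CPM, basophil and mast cell markers to 250 and 213 CPM, and stem and progenitor markers to 73.7 and 56.3 CPM. Erythroid markers summed to 236 CPM in knockout-labelled and 1102 CPM in control-labelled class cells, with Klf1, Epor and Gata1 at 0. The same list summed to 29357 and 76366 CPM in the other cells of those libraries, and its part in the results was not tested.

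The share of Ngp and Camp ran from 1.22% to 15.9% of a cell's UMIs in the library labelled knockout, with a median of 4.48%, and from 1.21% to 15.5% in the library labelled control, with a median of 12.1%. The class thus lay lower on this scale in the library labelled knockout. In that library 6 cells had 1 to 2%, 22 had 2 to 5% and 20 had 5% or more, whereas the control-labelled cells numbered 3, 0 and 21. Just inside the threshold stood cells of 1.22% and 1.21%, and just outside it cells of 0.988% and 0.905%, in the libraries labelled knockout and control. Elane still took 0.5% or more of UMIs in 38 of 48 knockout-labelled class cells, or 79.2% (65.0 to 89.5), against 5 of 24 control-labelled ones, or 20.8% (7.13 to 42.2). Most knockout-labelled class cells therefore overlapped with early cells in Elane, and most control-labelled ones did not.

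**Figure D1:**
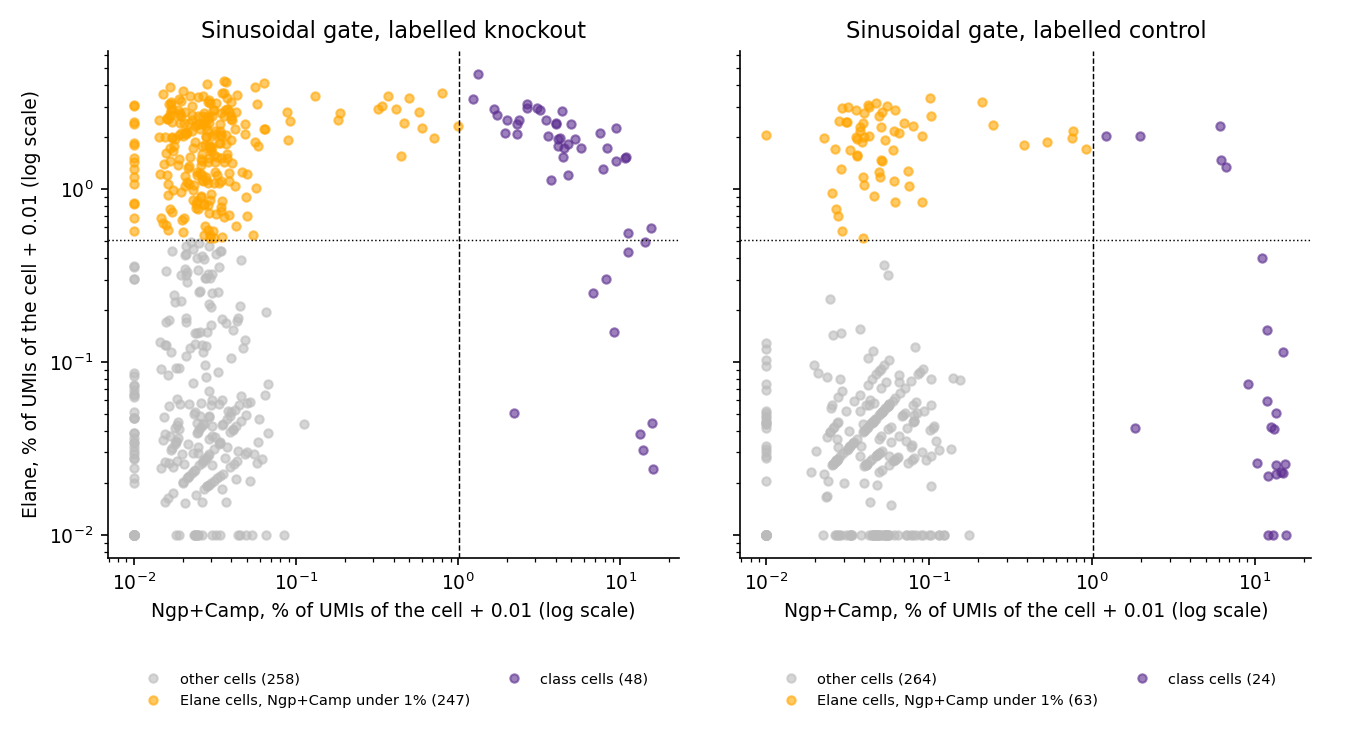
Each point is 1 cell of a sinusoidal library, with the percent of its UMIs from Ngp and Camp on the x axis and from Elane on the y axis, both with 0.01 added and on log scales, for the library labelled knockout (left) and labelled control (right). The dashed line marks the 1% class threshold and the dotted line 0.5% Elane; of the class cells, 38 of 48 knockout-labelled and 5 of 24 control-labelled cells lie above the dotted line.

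Secondary and tertiary granule genes were higher in the class than in early cells in both libraries. Because Ngp, Camp and Elane chose the cells, this is a description. A gene counted as called at 1.5-fold or more, with at least 20 UMIs over the cells compared, and 321 of 5590 genes (5.74%) were higher and 1490 (26.7%) lower in the class in both libraries. Of 21 secondary and tertiary granule genes with enough UMIs, 20 were higher in both and 0 lower, with median log2 ratios of 2.71 in the library labelled knockout and 3.47 in the library labelled control, beside medians over all genes of -0.27 and -0.64. Of 7 subunits of the phagocyte oxidase, which makes superoxide, 5 were higher. Of 30 ribosomal protein and translation genes 27 were lower in both libraries, and of 28 genes of the secretory pathway and protein folding 20. Of 16 primary granule genes 6 were lower and 1 higher in both, with median log2 ratios of -0.38 in the library labelled knockout and -1.82 in the library labelled control. Elane had 18636 CPM in class and 18692 CPM in early cells of the library labelled knockout, and 5655 and 19042 CPM in the library labelled control, so in the library labelled knockout the primary granule genes lay near the median of all genes.

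Ltf was the gene with the largest change by the smaller of its 2 log2 ratios. It stood at 947 CPM in class cells and 2.81 CPM in early cells of the library labelled knockout, and at 7260 and 22.8 CPM in the library labelled control. Ngp had 26665 against 172 CPM and 52603 against 297 CPM, and Camp 33703 against 252 CPM and 50905 against 588 CPM, in the same order. Retnlg (a resistin-like protein of neutrophils) ranked between Ngp and Camp, and after Camp came Cd177 (a neutrophil surface protein), S100a9, Lcn2, Orm1, S100a8, Ifitm6, Chil3, Lrg1, Gsn, Adpgk and Cybb, the catalytic subunit of the oxidase. S100a8 and S100a9, whose products pair as calprotectin, together took 12.2% of class UMIs against 0.596% of early UMIs in the library labelled knockout, and 24.8% against 1.39% in the library labelled control. On the falling side the leading genes were BC035044, Pdcd4, Phgdh (serine synthesis), Lgals1, Slc25a4 (the mitochondrial ADP/ATP carrier), Ccl9, F13a1, Mif, Srm (spermidine synthase) and Cd48. Mif, a cytokine, had 268 CPM in class and 1132 CPM in early cells of the library labelled knockout, and 113 and 1033 CPM in the library labelled control.

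The promoters of genes that are higher after this step are shown so that their letters can be compared. Ngp lies at chr9:110419747-110423012 on the plus strand, Camp at chr9:109847379-109849617 on the minus strand and Ltf at chr9:111019271-111042767 on the plus strand, all protein-coding genes of mouse chromosome 9 in GRCm38 (GENCODE M21). Lcn2 lies at chr2:32384633-32388252 on the minus strand, and Elane, the comparison from the early programme, at chr10:79886247-79888215 on the plus strand. The sequences are the part of the RefSeq promoter window (build GRCm38.p6) that lies before every annotated exon of the gene, on the gene's strand: chr9:110419558-110419746 for Ngp, chr9:109849618-109849706 for Camp, chr9:111019042-111019270 for Ltf and chr10:79886062-79886246 for Elane. Capitals mark matches to TTGNNCAA (N for any base), a palindrome and so the same on both strands. This loose pattern was chosen after the sequences had been read. C/EBP factors bind some sequences that match it, but whether they bind the ones marked here was not tested.
Ngp: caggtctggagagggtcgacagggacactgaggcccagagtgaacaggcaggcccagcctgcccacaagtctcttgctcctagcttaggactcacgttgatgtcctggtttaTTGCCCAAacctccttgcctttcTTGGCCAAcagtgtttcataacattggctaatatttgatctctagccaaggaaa
Camp: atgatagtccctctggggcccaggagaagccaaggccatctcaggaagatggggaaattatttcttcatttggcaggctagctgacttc
Ltf: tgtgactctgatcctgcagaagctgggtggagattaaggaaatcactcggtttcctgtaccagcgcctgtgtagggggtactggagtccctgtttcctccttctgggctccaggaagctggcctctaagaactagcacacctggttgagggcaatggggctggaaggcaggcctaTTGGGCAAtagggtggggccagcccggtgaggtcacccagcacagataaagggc
Elane: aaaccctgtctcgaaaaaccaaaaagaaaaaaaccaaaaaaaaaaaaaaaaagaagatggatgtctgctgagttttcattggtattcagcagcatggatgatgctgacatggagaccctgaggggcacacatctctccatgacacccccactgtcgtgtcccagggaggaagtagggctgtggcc
Ngp held 2 matches in the printed part, at 138 and 115 bases before the RefSeq start, and Ltf held 1, at 75 bases, while neither Camp nor Elane held one. Over the 250 bases before the start, a match was found in 8 of 25 promoter windows of secondary and tertiary granule genes (32.0%), namely those of Adam8, Cybb, Fcnb, Lcn2, Ltf, Mmp8, Ngp and Slpi. None of 16 windows of primary granule genes held one, beside 1856 of 32851 windows of all genes (5.65%). The windows read before the motif was chosen, among them those of Ngp, Ltf and Elane, stay in these counts. The choice therefore partly sets the shares, which are a description. A match describes letters in a window, not a bound site.

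Within the class, the granule genes split by label. Counted over all genes with at least 20 UMIs, 1529 of 4017 (38.1%) were at least 1.5-fold higher in the library labelled knockout and 393 (9.78%) at least 1.5-fold lower, and the median log2 ratio was 0.34. With libraries scaled by the median gene ratio instead of total UMIs, which takes away that shift of 0.34, 875 genes were higher and 769 lower. Of 30 secondary and tertiary granule genes 22 had enough UMIs, of which 18 were lower in the library labelled knockout, 3 lay between and 1, Fcnb (a ficolin), was higher. Without Ngp and Camp, which chose the cells, 16 of 20 were lower and the median log2 ratio was -1.30. Of 17 primary granule genes 16 had enough UMIs, of which 14 were higher, 1 lay between and 1 was lower, with a median log2 ratio of 1.41.

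Ltf had 681 UMIs (947 CPM, 877 to 1021) in knockout-labelled and 1805 UMIs (7260 CPM, 6929 to 7603) in control-labelled class cells, a ratio of 0.130 (0.119 to 0.142). Lcn2 had 1347 CPM in knockout-labelled and 10128 CPM in control-labelled cells, a ratio of 0.133 (0.123 to 0.143). For Ltf the quartiles over cells were 0, 0 and 0 CPM in knockout-labelled and 730, 8172 and 13393 CPM in control-labelled cells, so the interquartile ranges did not overlap, although the full ranges did. Of the other secondary and tertiary granule genes, Mmp9 had 6 UMIs (8.34 CPM) in knockout-labelled and 36 UMIs (145 CPM) in control-labelled cells. Its ratio of 0.0576 (0.0198 to 0.138) thus rests on few UMIs. The chitinase-like Chil1 had 62.6 and 342 CPM (0.183), and Cd177 272 and 845 CPM (0.323). Lysozyme Lyz2 had 5163 and 15598 CPM (0.331), the protease inhibitor Slpi 154 and 398 CPM (0.387), Cybb 352 and 821 CPM (0.429), and Wfdc21 2972 and 6029 CPM (0.493). Smaller differences were seen for the chitinase-like Chil3 (0.598), the peptidoglycan-binding Pglyrp1 (0.751), haptoglobin Hp (0.840) and the oxidase subunit Cyba (0.909). Fcnb went the other way, with 1742 CPM in knockout-labelled and 1050 CPM in control-labelled cells, a ratio of 1.66 (1.45 to 1.90).

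Among primary granule genes Mpo had 3568 CPM in knockout-labelled and 961 CPM in control-labelled class cells, a ratio of 3.71 (3.25 to 4.26). Ctsg had 2151 and 591 CPM (3.64), Elane 18636 and 5655 CPM (3.30), and Prtn3 5730 and 2208 CPM (2.59). Ms4a3, a membrane protein of granulocyte progenitors, had 2285 and 1034 CPM (2.21), and Serpinb1a, an inhibitor of neutrophil proteases, 1610 and 1235 CPM (1.30). The exception was Lyz1, with 13.9 and 141 CPM, whose reads cannot be parted with certainty from those of its near-identical neighbour Lyz2. In early cells the primary granule genes had a median log2 ratio of -0.09 and 0 of 17 were higher and 1 lower, where 943 of 8876 genes (10.6%) were called higher and 765 (8.62%) lower. There Elane had 18692 and 19042 CPM and Mpo 6667 and 6749 CPM. Because Elane chose the early cells, the near-equal values of Elane and of genes that follow it are a description. The secondary and tertiary list was called lower for 9 and higher for 2 of 20 genes in early cells. These 20 include Ngp and Camp, which chose the cells. Without this pair the median log2 ratio of the other 18 was -0.54, beside -0.0012 for all genes. Camp had 252 and 588 CPM in early cells, and 96.2 and 216 CPM in lymphoid cells, which do not make granule proteins. How much of the early-cell values is such background was not tested.

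The size rule for single genes asked for at least 100 CPM in 1 library and an interval wholly beyond 1.5-fold, and 130 genes passed it as higher and 45 as lower. The highest ratios were those of Cnpy2 (4.44), Dctpp1 (4.15), Pfdn2 (4.15), Impdh2 (4.02), Mpo, Ctsg, Slc6a13 (3.61), Nkg7 (3.60), Csgalnact2 (3.55), Mrpl12 (3.50), Mrps36 (3.46) and Mcm5 (3.39). Among them Impdh2 makes guanine nucleotides, Pfdn2 is part of the prefoldin chaperone, Mrpl12 and Mrps36 are named as mitochondrial ribosomal proteins and Mcm5 is part of the replicative helicase. The lowest, after Gm5483, were St3gal5 (0.0364), the formyl peptide receptor Fpr2 (0.0506), Mmp9, Ifitm6 (0.0582), Ly6g (0.0900), Lyz1, S100a6 (0.109), Hbb-bt (0.128), Ltf, Lcn2 and Ly6i (0.135). Of these, St3gal5 had 4 and 38 UMIs (interval 0.00943 to 0.101) and Fpr2 6 and 41 UMIs (0.0175 to 0.120). Ifitm6, an interferon-induced transmembrane protein, had 171 CPM in knockout-labelled and 2936 CPM in control-labelled class cells. Ly6g, the neutrophil surface antigen Ly-6G, had 34.8 and 386 CPM. All 34 UMIs of Gm5483 lay in 1 control-labelled cell, against 0 in the library labelled knockout. Hbb-bt is a haemoglobin chain, and reads of Ly6g, Ly6i and Hbb-bt can be split with close paralogs. In early cells Hbb-bt had 20.6 and 695 CPM (0.0296), so its label difference was not particular to the class.

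The split was much smaller among class cells with more Elane. Class cells with Elane at 0.5% or more numbered 38 in the library labelled knockout and 5 in the library labelled control. Among them 798 of 3308 genes (24.1%) were called higher and 530 (16.0%) lower, and of the secondary and tertiary granule genes without Ngp and Camp, 6 of 18 were higher and 2 lower, with a median log2 ratio of 0.04 beside -0.03 for all genes. The 6 higher ones were Ltf, Chil1, Cd177, Itgb2l, Slpi and Orm1, each with 1 to 7 UMIs in the 5 control-labelled cells and an interval that spanned equality. Chil3 had 3425 CPM in knockout-labelled and 3439 CPM in control-labelled cells there (0.996, 0.874 to 1.14), Lyz2 3128 and 3372 CPM (0.928) and S100a9 35290 and 36498 CPM (0.967). The 2 lower ones were Lcn2, with 444 and 1075 CPM (0.413, 0.321 to 0.538), and Cybb, with 288 and 524 CPM (0.551). Of 80 control-labelled Lcn2 UMIs there 72 came from 1 cell. Ltf had 27 UMIs in 2 of 38 knockout-labelled cells and 1 UMI in 1 of 5 control-labelled cells. Most cells with Elane at 0.5% or more thus had no Ltf UMI under either label, while 1 knockout-labelled cell held 25 of the 27. Of the primary granule genes 3 of 15 were higher and 0 lower, and Prtn3 had 6607 and 6609 CPM (interval of the ratio 0.910 to 1.10). Elane set this stratum, so the values of primary granule genes in it are a description.

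Class cells with Elane under 0.5% numbered 10 in the library labelled knockout and 19 in the library labelled control. Of 1321 genes 396 (30.0%) were higher and 147 (11.1%) lower there, and of 22 secondary and tertiary granule genes 10 were lower and 1 higher. Without Ngp and Camp the median log2 ratio was -0.53, beside 0.24 for all genes. Camp was close to equal, at 59683 CPM in knockout-labelled and 60566 CPM in control-labelled cells (0.985, 0.956 to 1.02), and Chil3 had 10708 and 9502 CPM (1.13). Ltf had 5634 and 10357 CPM (0.544, 0.497 to 0.595), Lcn2 6039 and 13997 CPM (0.431), Ifitm6 930 and 4122 CPM (0.226) and Ly6g 138 and 551 CPM (0.250, 0.137 to 0.427). Ltf in single cells ran from 0 to 17754 CPM, with a median of 448, in the 10 knockout-labelled cells and from 94.4 to 25232 CPM, with a median of 10671, in the 19 control-labelled ones. The ranges overlapped, and 3 knockout-labelled cells held 563 of the 654 Ltf UMIs. Elane itself had 2076 and 597 CPM (3.48), so the knockout-labelled cells of this stratum kept more of it as well.

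**Figure D2:**
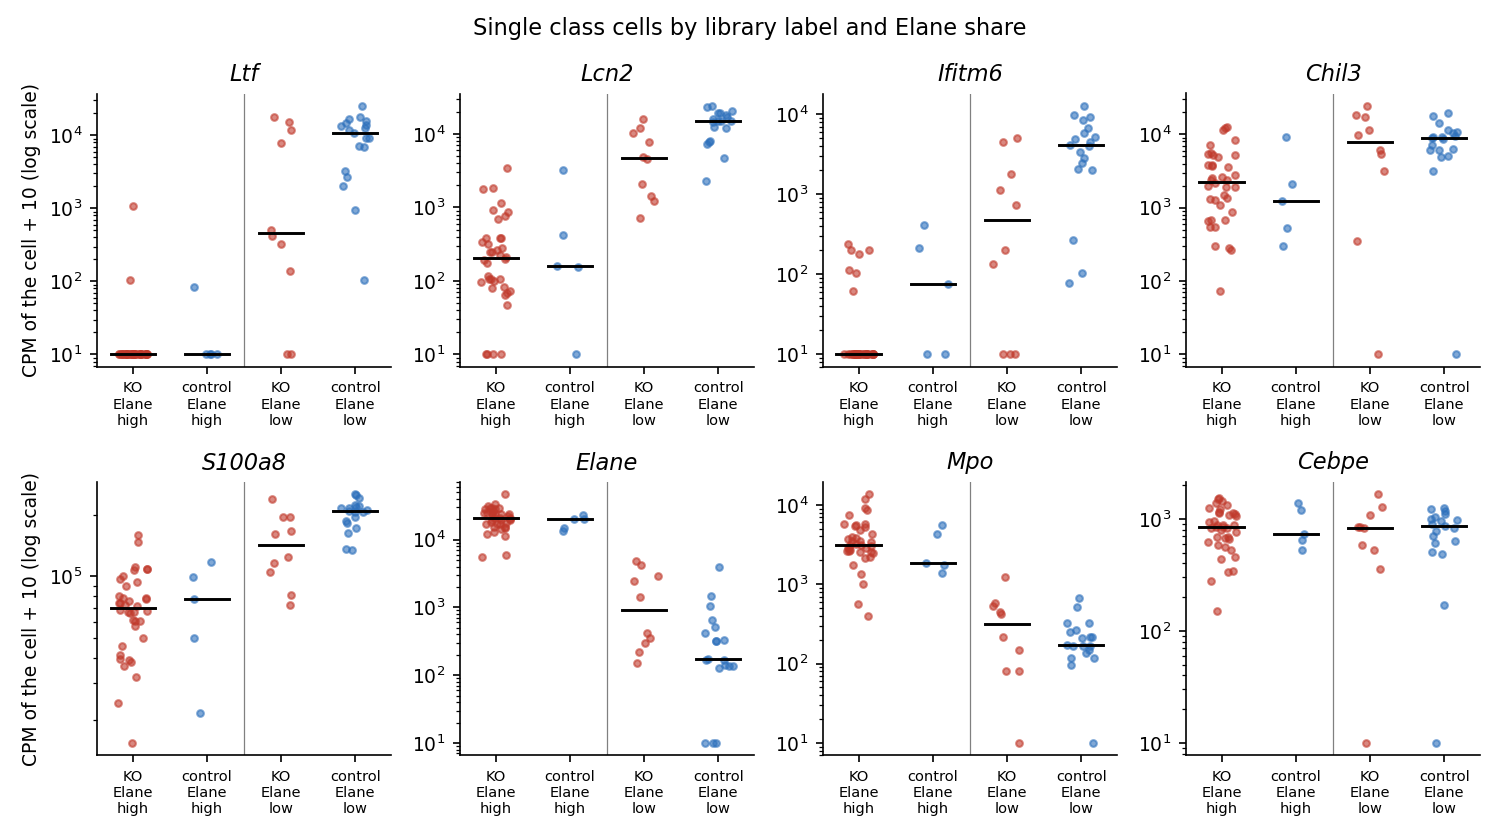
Each point is 1 class cell, with its CPM plus 10 on a log scale for 8 genes, and the bar is the median over cells. In every panel the cells with Elane at 0.5% or more stand left (38 knockout-labelled, then 5 control-labelled) and those under 0.5% right (10, then 19). The Ltf medians on the left are 0 CPM under both labels, and the 4 Cebpe medians lie close together.

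The label difference was also present in cells matched more closely for Ngp and Camp. In the 20 knockout-labelled and 21 control-labelled cells with 5% or more, 743 of 2321 genes (32.0%) were higher and 210 (9.05%) lower. Of the 21 secondary and tertiary granule genes 12 were lower and 1 higher there, and 13 of 15 primary granule genes were higher and 1 lower. Without Ngp and Camp, which set these cells, the median log2 ratio of the other 19 secondary and tertiary genes was -0.76, beside 0.27 for all genes. Ltf had 2305 CPM in knockout-labelled and 8334 CPM in control-labelled cells (0.277), Lcn2 2866 and 11530 CPM (0.249) and Elane 10007 and 3779 CPM (2.65). Of these cells, 9 knockout-labelled and 18 control-labelled ones had Elane under 0.5%, so the strata still differed in Elane.

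**Figure D3:**
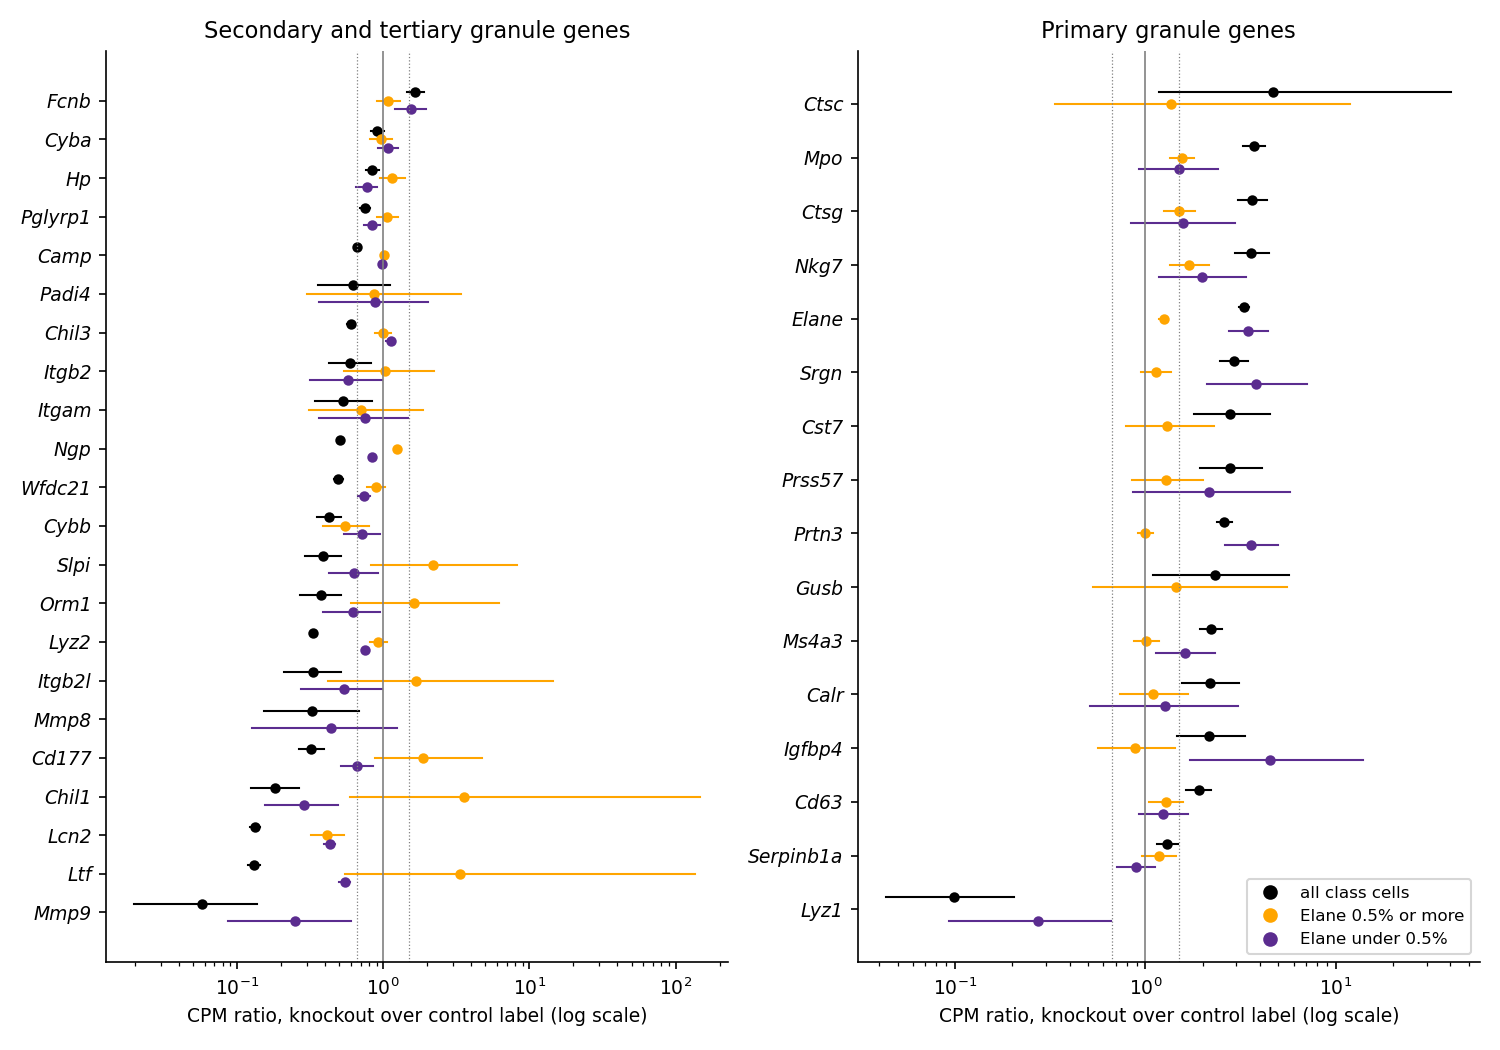
Points are CPM ratios, library labelled knockout over labelled control, on a log scale with exact 95% intervals for counting error, for genes with at least 20 UMIs in the cells named, over all class cells (black), cells with Elane at 0.5% or more (orange) and under 0.5% (purple); dotted lines mark 1.5-fold. Ltf stands at 0.130 over all class cells and at 0.544 in the cells with little Elane, and Mpo at 3.71 over all class cells.

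Other genes of neutrophil maturation moved with these strata. S100a8 had 79810 CPM in knockout-labelled and 158082 CPM in control-labelled class cells (0.505, 0.498 to 0.511), with 0.910 in cells with Elane at 0.5% or more and 0.690 in those under it. Anxa1, a phospholipid-binding protein that limits neutrophil responses, had 670 and 2470 CPM (0.271) over the class, with 0.955 and 0.698 in the 2 strata. S100a6 had 86.2 and 792 CPM, with 0.987 and 0.233. Of its 197 control-labelled UMIs 193 lay in cells with Elane under 0.5%, so the 0.987 rests on too few UMIs to show equality. Of 17 S100 and cytosolic neutrophil genes with enough UMIs 10 were lower and 2 higher over the class, and of 15 mature neutrophil genes 6 were lower and 2 higher, where 9.78% of all genes were lower and 38.1% higher. Ribosomal protein genes took 18.2% of class UMIs in the library labelled knockout and 10.4% in the library labelled control, but 19.5% and 20.3% in cells with Elane at 0.5% or more and 11.1% and 6.15% in those under it. Mitochondrial transcripts took 2.89% and 1.54% of class UMIs and 3.09% and 2.99% in the cells with more Elane.

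**Figure D4:**
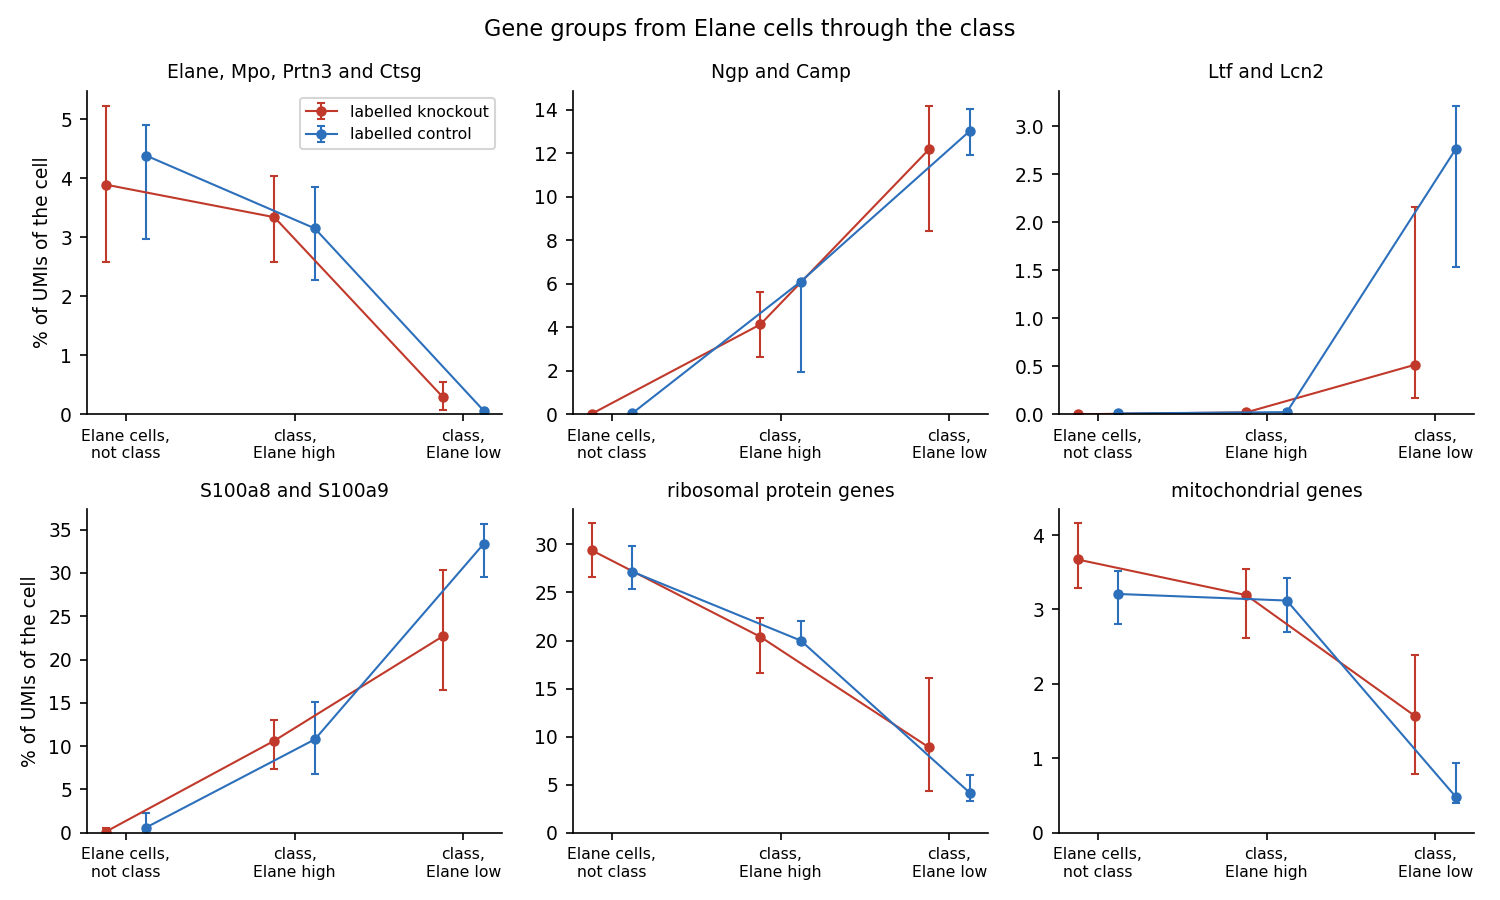
Points are medians over cells and bars the quartiles of the percent of a cell's UMIs from 6 gene groups, in early cells, class cells with Elane at 0.5% or more (Elane high) and class cells under 0.5% (Elane low), for the libraries labelled knockout (red) and control (blue). The primary granule proteases with Mpo, ribosomal and mitochondrial genes go down along this order under both labels. The late granule and S100 genes go up, with Ltf and Lcn2 together at medians of 0.516% (knockout-labelled) and 2.76% (control-labelled) of UMIs in the Elane-low cells. Elane, Ngp and Camp set the order, so the course of the groups that hold them was fixed by the choice of cells.

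Genes of the cell cycle were still read in the class. Over the class 19 of 26 S phase genes were higher and 1 lower under the knockout label, with a median log2 ratio of 0.64, where 38.1% of all genes were higher. In cells with Elane at 0.5% or more 7 of 25 S phase genes were higher and 0 lower, a share near the 24.1% of all genes, and in those under 0.5% 1 was higher and 1 lower of 7. Of 25 G2/M genes 9 were higher and 0 lower over the class, a share near the 38.1% of all genes. By stratum, 10 of 19 G2/M genes were higher and 1 lower in cells with Elane at 0.5% or more, beside 24.1% of all genes higher, and 11 of 16 were higher and 0 lower in those under 0.5%, beside 30.0%, with a median log2 ratio of 0.80 in the cells with little Elane. In these Ube2c, which drives mitotic exit, had 551 CPM in knockout-labelled and 103 CPM in control-labelled cells (5.34, 3.12 to 9.57), and Birc5 (survivin) 422 and 184 CPM (2.30, 1.44 to 3.71). The proliferation marker Mki67 had 112 and 86.1 CPM there, from 13 and 15 UMIs.

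Of the regulators of the programme, Cebpe had 812 CPM in knockout-labelled and 841 CPM in control-labelled class cells (0.966, 0.823 to 1.14), and Spi1, the factor PU.1, 443 and 418 CPM (1.06, 0.847 to 1.34). Gfi1, a repressor active at the promyelocyte stage, had 55 UMIs in knockout-labelled and 3 in control-labelled cells, a ratio of 6.34 (2.06 to 31.7). Klf2 had 79.2 and 161 CPM (0.492), Lmo4 93.1 and 169 CPM (0.551) and the MYC antagonist Mxd1 16.7 and 64.4 CPM (0.259). Myc itself had 22 UMIs in knockout-labelled class cells and 0 in control-labelled ones. Of 17 transcription factors of granulocytes 5 were higher and 4 lower, where 38.1% of all genes were higher and 9.78% lower. Id2 had 209 CPM in knockout-labelled and 201 CPM in control-labelled class cells (1.04, 0.748 to 1.46), against 22.4 and 57.5 CPM in early cells. Id1 gave 15 UMIs in knockout-labelled and 7 in control-labelled class cells (0.741, 0.284 to 2.15), too few to show a difference.

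Among receptors, Fpr2 had 8.34 CPM in knockout-labelled and 165 CPM in control-labelled class cells, and the complement receptor C5ar1 48.7 and 109 CPM (0.448, 0.263 to 0.770). In the cells with little Elane C5ar1 had a ratio of 1.08 (0.555 to 2.06) and Fpr2 of 0.220 (0.0762 to 0.520). The inhibitory lectin Clec12a had 1082 and 599 CPM (1.80, 1.51 to 2.17), and the interferon-gamma receptor chain Ifngr1 161 and 25 UMIs (2.23, 1.45 to 3.54). Csf3r, the receptor of granulocyte colony-stimulating factor, gave 50 of 719367 UMIs in knockout-labelled and 6 of 248618 in control-labelled class cells. Of 14 receptors with enough UMIs 3 were higher and 5 lower, against the same shares of all genes. Of the oxidase subunits, none of which was called higher over the class, Ncf4 had a ratio of 0.873 (0.699 to 1.10), against 0.429 for Cybb.

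Across single class cells, the genes that followed the summed share of Ngp and Camp most closely were read as a mean of Spearman's rho over the 48 knockout-labelled and the 24 control-labelled cells, among 3256 genes. The cells of a library share its preparation and differ in depth, and shares of 1 total are tied to each other, so these are descriptions. Lcn2 came first (0.62 in knockout-labelled and 0.67 in control-labelled cells), then Chil1 (0.59 and 0.62), Lyz2, Plp2, Orm1, Chil3, Ltf (0.51 and 0.65), S100a8, Lrg1 and Cd177. The most opposed was Elane (-0.77 and -0.66), followed by the proteoglycan Srgn (-0.80 and -0.54), Rpl37a, the metallothionein Mt1, Mpo and Nkg7.

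A pair of class cells stood apart by Retnlg. A knockout-labelled cell of 2456 UMIs and 608 genes held 169 of the 183 Retnlg UMIs of its library's class, and a control-labelled cell of 3184 UMIs and 845 genes held 145 of 187. Both had little Ngp and Camp (2.20% and 1.82%) and little Elane (0.0407% and 0.0314%), with S100a8 at 236971 and 215452 CPM and Ifitm6 at 4479 and 2827 CPM. The control-labelled one also carried the 34 Gm5483 UMIs. Retnlg values of the class therefore rest on 1 cell in each library: its log2 ratio was below 0 over the class but 0.51 among cells with Elane under 0.5%.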

How the data were processed

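Sorted mouse cells were profiled with droplet 3' sequencing (10x Chromium), 1 library for each genotype label and gate. The authors deposited filtered matrices of UMI counts per gene and cell, made with Cell Ranger and Seurat on genome mm10 (versions not stated), per the submitters' processing notes. Counts were used as deposited. Cells needed at least 200 genes and under 10% mitochondrial UMIs. Counts were summed over the cells of a class in each library and given as CPM of that sum, with exact Poisson, Clopper-Pearson or conditional binomial 95% intervals (Python 3.11.15, numpy 2.4.6, scipy 1.17.1, pandas 2.3.3). PCR errors aside, these cover counting error only. Genes needed 20 UMIs, log2 ratios used a pseudocount of 0.5 UMI, and with 1 library a group no test was made. Named genes were the 12 highest and 12 lowest label ratios among genes with at least 100 CPM in 1 library and an interval wholly beyond 1.5-fold, the 15 genes in each direction for the class over early cells, and list members. Members and lists were chosen with earlier results of these data known, and 7 of 510 listed symbols had no match. Doublets were not removed: Scrublet (scanpy 1.11.5) marked 6 of 553 knockout-labelled and 5 of 351 control-labelled cells, of which 1 and 0 were class cells. Scripts were tested on simulated data. Alternatives covered thresholds, scaling, UMI minimum, strata, Xist and Y-linked groups and doublets.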

Additional observations from a re-analysis of the deposited data

How the results depend on the processing

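No paired analysis was possible because each label is 1 library with no replicate number. Of 94 recomputed summary values 60 stayed near the main value, 33 moved and 1 reversed, and of 510 recomputed log2 ratios of single genes 271 stayed, 222 moved and 17 reversed. At a threshold of 5% the class held 20 of 553 knockout-labelled cells (3.62%) and 21 of 351 control-labelled cells. The share was then larger under the control label, the reverse of the order at 1%. The median log2 ratio of the secondary and tertiary granule genes (main -1.30) was -1.64 with median-ratio scaling, -0.76 at 5% or more Ngp and Camp, -0.41 at 1 to 2%, -0.53 with Elane under 0.5%, 0.042 with Elane at 0.5% or more, -0.69 in cells with Xist alone and -0.49 with 5% or more Ngp and Camp and Elane under 0.5% together, the last chosen after seeing the data. Of these genes, 16 of 20 were lower in the main setting and 2 of 18 with Elane at 0.5% or more. With Elane under 0.5% 10 of 20 were lower, and in the combined stratum 8 of 19. At 1 to 2% 4 were lower, and with Xist alone 9. Over all genes, 1529 of 4017 were higher by label and 393 lower in the main setting, and 875 and 769 with median-ratio scaling. At 5% they were 743 and 210 of 2321, and with Elane at 0.5% or more 798 and 530 of 3308. Under 0.5% they were 396 and 147 of 1321, and in the combined stratum 395 and 146 of 1300. They were 227 and 141 at 1 to 2% and 331 and 85 with Xist alone. With a minimum of 1 UMI they were 4951 and 2006, and with 100 UMIs 416 and 59. In cells with Y-linked UMIs alone 254 were lower. The number of genes measured differs between settings, so counts given without it cannot be set against the main ones. Fewer cells enter the strata, and the UMI minimum changes which genes enter. Beyond that the cause was not tested. The reversed log2 ratios with Elane at 0.5% or more were Ltf 1.18, Chil1 1.28, Cd177 0.81, Ly6g 1.23, Orm1 0.55, Ngp 0.32, Camp 0.020 and Prtn3 -0.0017. At 1 to 2% they were Chil3 1.25, Fcnb -0.34, Anxa1 0.18, Ngp 0.086 and Camp 0.014. Under 0.5% Elane they were Chil3 0.17 and Retnlg 0.51, in the combined stratum Chil3 0.18, and at a threshold of 2% Retnlg 0.62. Among cells with Elane at 0.5% or more, Ltf had 27 knockout-labelled and 1 control-labelled UMIs and Ly6g 9 and 0. Neither of those reversed values therefore shows a direction. The stratum of 2 to 5% held no control-labelled cell and gave no value. Depth limits genes with few UMIs, such as Id1 with 15 and 7.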

Other observations

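The type H libraries held few cells that passed the same rule, 4 of 1857 labelled knockout and 2 of 806 labelled control. The 4 knockout-labelled cells had 9.23% to 13.8% of UMIs from Ngp and Camp, Elane at 0 to 0.00617%, Ltf at 5834 to 17386 CPM and Lcn2 at 10084 to 15721 CPM. One control-labelled cell had 1.34% Ngp and Camp, 2.37% Elane, no Ltf UMI and Lcn2 at 61.9 CPM. The other had 13.5% Ngp and Camp, 0.610% Elane, Ltf at 1349 CPM and Lcn2 at 5139 CPM. All 4 knockout-labelled type H cells thus carried Ltf. In the sinusoidal gate Ltf was found in 10 of 48 knockout-labelled class cells, but in 8 of the 10 with Elane under 0.5%, which are more like these 4. The type H cells are too few for a comparison by label or by gate.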
